A study of Mus musculus with 12 samples.

Results

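The genes described here are 10 markers of the endothelial cells that line the sinusoids and larger vessels of the liver. They were chosen by symbol from a list of established markers. All 10 were among the 24532 genes of the count table and passed the filter on low counts, which left 13379 genes for testing. The sinusoidal markers are Stab1, Stab2, Lyve1, Clec4g and Fcgr2b, and the markers of vascular endothelium at large are Pecam1, Tek, Kdr, Vwf and Cd34. Total RNA came from whole livers of C57BL/6x129S6/SvEv mice at 20 weeks of age, with 4 sequenced libraries in each of 3 groups. Het is the control group, by its label heterozygous, KO is the Atp7b-/- group, and KO_drug is the Atp7b-/- group fed an LXR agonist, a compound that activates the liver X receptors. The labels used here give no name, dose or duration for the agonist. No group of wild-type mice or of agonist-fed controls was analysed here. Libraries are named by group and by the number in their title.

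Atp7b is a copper-exporting ATPase whose loss causes copper to accumulate in the liver, as in Wilson disease. Sinusoidal endothelial cells form a fenestrated wall with little basement membrane and clear waste molecules from blood through scavenger and Fc receptors. In chronic liver injury these cells are known to lose fenestrae and to gain features of ordinary capillaries, among them Cd34, Pecam1 and a basement membrane, a change called capillarization. Several of the markers are shared with other cells: Stab1, Lyve1 and Fcgr2b with macrophages, Fcgr2b with B cells, Vwf and Pecam1 with platelets, and Cd34 with fibroblasts and blood progenitors.

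The bases just upstream of 3 markers are shown to set a vascular marker that was called in the comparisons below, Cd34, beside a pair of sinusoidal markers that were not, Stab1 and Fcgr2b. They come from RefSeq promoter windows on GRCm38.p6 and are read 5′ to 3′ on the strand of the gene, up to the base before its annotated start. Capitals mark the letters AGGAAG on either strand, a form of the site of ETS factors, which regulate many endothelial genes. The letters AGATAA, a form of the GATA-factor site, were searched on both strands as well and do not occur in these 3 stretches.
Cd34, chr1:194938571-194938820, plus strand, 250 bases: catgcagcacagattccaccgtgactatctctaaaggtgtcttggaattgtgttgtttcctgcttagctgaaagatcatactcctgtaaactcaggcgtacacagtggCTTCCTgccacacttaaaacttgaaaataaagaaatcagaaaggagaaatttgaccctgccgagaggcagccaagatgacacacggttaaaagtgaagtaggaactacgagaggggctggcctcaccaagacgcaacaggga
Stab1, chr14:31168652-31168891, minus strand, 240 bases: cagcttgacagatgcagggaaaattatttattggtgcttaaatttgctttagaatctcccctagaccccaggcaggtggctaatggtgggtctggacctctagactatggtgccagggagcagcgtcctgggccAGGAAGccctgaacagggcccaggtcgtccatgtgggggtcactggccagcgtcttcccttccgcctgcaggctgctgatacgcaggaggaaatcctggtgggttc
Fcgr2b, chr1:170976072-170976321, minus strand, 250 bases: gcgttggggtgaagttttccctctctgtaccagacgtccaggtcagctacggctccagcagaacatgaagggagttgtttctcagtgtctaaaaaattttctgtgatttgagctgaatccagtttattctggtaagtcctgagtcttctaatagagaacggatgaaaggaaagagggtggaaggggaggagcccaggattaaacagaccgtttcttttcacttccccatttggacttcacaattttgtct

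Of the 10 markers, 7 had a RefSeq promoter window of 300 bases. The ETS letters were in 4 of those 7 windows (Stab1, Stab2, Clec4g and Cd34) and in 35.4% of all 32851 windows. The GATA letters were in 1 of the 7, that of Tek, and in 11.2% of all windows. Of the markers called below, the window of Cd34 held the ETS letters and that of Tek did not, and a match is a description of the letters only.

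Library totals ranged from 16535938 to 28329751 counts, which gave 21 to 166 counts per library for Cd34, the least covered marker, and 1612 to 4105 for Stab2, the best covered. Levels are given as CPM, counts relative to library sizes scaled by TMM (trimmed mean of M-values), and a value after ± is the SD over the 4 libraries of a group. TMM scaling put the median log2 change of all tested genes at 0.02 in KO vs Het, and scaling to total counts alone put it at 0.54. In KO_drug vs KO these medians were -0.02 and -0.36. Atp7b itself was at 9.90 to 16.2 CPM in Het and at 1.27 to 3.49 CPM in the Atp7b-/- libraries of both groups. Xist, made from the inactive X chromosome of females, was at 81.8 CPM (KO 5) and 17.8 CPM (KO 6), and no other library exceeded 0.425 CPM. Ddx3y, a gene of the Y chromosome, was at 0.379 CPM in KO 5, at 64.4 CPM in KO 6 and at 79.5 to 110.6 CPM in the other 10 libraries, so KO 6 held both RNAs. The labels give no sex, and where leaving out KO 5 and KO 6 ends a call the value without them is given. In bulk RNA, fewer cells of a type and less RNA per cell cannot be told apart. The labels do not say how the animals were related or handled, and each library was treated as 1 animal. The p-values therefore set a group difference against the spread among these libraries only.

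Per length of gene model, on the authors' deposited FPKM (fragments normalised to gene length and library size), the markers spanned a wide range in Het liver. Fcgr2b, the inhibitory Fc receptor that takes up immune complexes, stood highest at 26.1 ± 3.17 FPKM (SD, n = 4), and Clec4g, a C-type lectin of sinusoidal cells, stood next at 23.2 ± 5.62 FPKM with overlapping libraries. Kdr, the main VEGF receptor, stood at 11.0 ± 2.83 FPKM, and the stabilin scavenger receptors Stab2 and Stab1 stood at 10.1 ± 2.59 and 7.70 ± 2.70 FPKM. Neighbours among these 3 overlapped. Pecam1, a junctional adhesion molecule, overlapped Stab1 at 5.66 ± 0.418 FPKM. Tek, the angiopoietin receptor Tie2, lay below it without overlap at 3.41 ± 0.184 FPKM, and Lyve1, a hyaluronan receptor, below Tek at 1.32 ± 0.354 FPKM. Vwf, a glycoprotein that binds platelets, and Cd34, a sialomucin of continuous capillaries, were lowest at 0.502 ± 0.229 and 0.468 ± 0.376 FPKM, and they overlapped. In KO, Pecam1 at 12.2 ± 3.28 FPKM stood between Stab2 and Stab1 and overlapped both. Cd34 at 1.67 ± 1.03 FPKM stood above Vwf at 0.825 ± 0.158 FPKM in KO, without overlap. In KO_drug, Cd34 at 0.500 ± 0.141 FPKM was again below Vwf at 0.636 ± 0.228 FPKM, with overlap.

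The comparison of KO with Het addresses how these markers differ when Atp7b is lost. Of the 10 markers, 4 were called higher in KO at an adjusted p under 0.05 (edgeR's quasi-likelihood test with Benjamini-Hochberg adjustment over all tested genes) and none lower. Lyve1 was 3.02-fold higher, Cd34 2.48-fold, Tek 1.81-fold and Pecam1 1.47-fold. Stab1, Stab2, Clec4g, Fcgr2b, Kdr and Vwf were not called, with log2 changes between -0.24 and 0.21. Over all tested genes 40.7% were called, 23.0% higher and 17.7% lower, so 4 of 10 is close to the background in either direction together. The groups did not overlap for 1 of the 10 markers, Tek, against 39.3% of all genes. The median log2 change was 0.04 over the 10 markers, -0.17 over the sinusoidal markers, of which 1 of 5 was called, and 0.56 over the vascular ones, of which 3 of 5 were. No marker was lower at an unadjusted p under 0.05 in edgeR, and DESeq2 and limma on log2(FPKM + 1) called 0 lower. Over all genes limma called 7123 higher and only 457 lower, so its 0 lower says little about these markers.

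**Figure D1:**
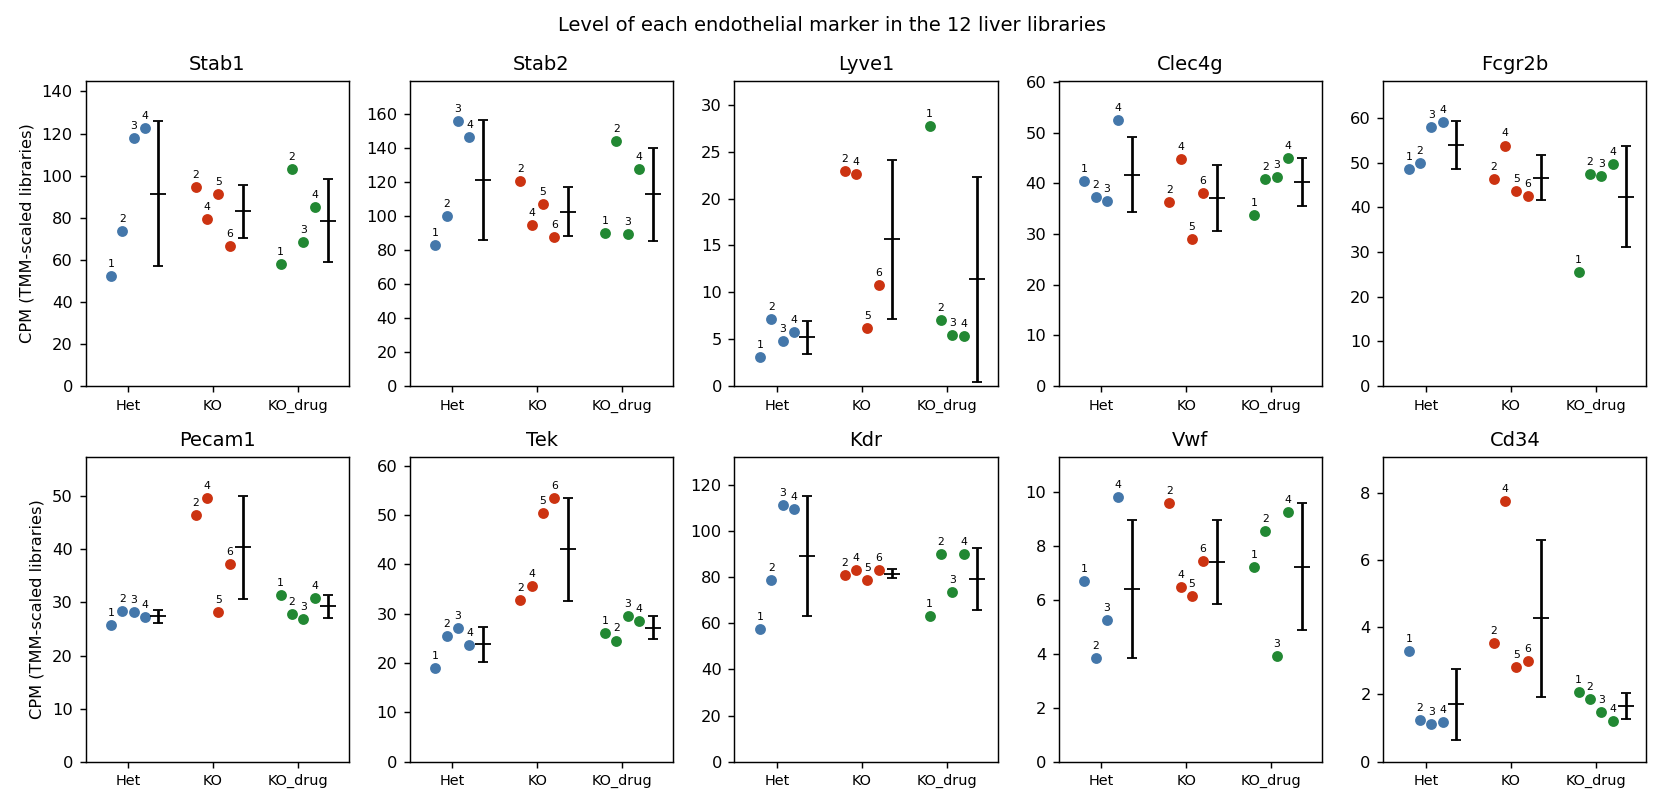
Level of each marker in CPM on TMM-scaled library sizes, 1 point per library with its number, beside the mean and SD of the 4 libraries of each group; each panel has its own axis from 0. In Tek the 4 KO points lie above all Het and KO_drug points, in Stab1, Stab2, Clec4g and Kdr the 3 groups overlap, and Lyve1 is high in KO 2, KO 4 and KO_drug 1.

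Tek transmits signals of the angiopoietins that keep endothelium quiescent, and its gene lies on chromosome 4 at 94739086 to 94874976 (mm10, as are the positions below). Its levels were 18.9, 25.5, 27.1 and 23.6 CPM in Het 1 to 4, and 32.7, 35.5, 50.4 and 53.5 CPM in KO 2, 4, 5 and 6. In KO_drug 1 to 4 they were 26.1, 24.6, 29.6 and 28.5 CPM. All KO libraries lay above all others, and KO 5 and KO 6 were highest. The log2 change in KO vs Het was 0.85 (SE 0.17, adjusted p = 0.00153), and the exact two-sided permutation p was 0.0286, the smallest that 4 against 4 libraries allow. Tek passed in all 8 fits that left out 1 library. Without KO 5 and KO 6 its change was 0.46 (adjusted p = 0.0456).

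Pecam1 joins endothelial cells to each other and is also found on platelets and leukocytes; its gene lies on chromosome 11 at 106654213 to 106715281. Its levels were 25.7, 28.4, 28.2 and 27.3 CPM in Het 1 to 4, and 46.6, 49.6, 28.2 and 37.3 CPM in KO 2, 4, 5 and 6. In KO_drug 1 to 4 they were 31.4, 27.9, 26.8 and 30.9 CPM. KO 5 overlapped Het while KO 2 and KO 4 were highest, the opposite of the order seen in Tek. The log2 change in KO vs Het was 0.56 (SE 0.15, adjusted p = 0.0106; exact two-sided permutation p = 0.0857). Pecam1 passed in all 8 fits that left out 1 library.

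Cd34 is scarce on healthy sinusoids, and its gene lies on chromosome 1 at 194938821 to 194961292. Its levels were 3.30, 1.25, 1.11 and 1.17 CPM in Het 1 to 4, and 3.52, 7.75, 2.80 and 3.00 CPM in KO 2, 4, 5 and 6. In KO_drug 1 to 4 they were 2.07, 1.88, 1.49 and 1.22 CPM. Het 1 lay among the KO libraries, and KO 4 lay far above all others. The log2 change in KO vs Het was 1.31 (SE 0.42, adjusted p = 0.0242; exact two-sided permutation p = 0.0857). Cd34 lost its call when KO 4 was left out (0.87, adjusted p = 0.0960), and likewise without Het 2 (1.18, adjusted p = 0.0655), without Het 3 (1.15, adjusted p = 0.0668) or without Het 4 (1.16, adjusted p = 0.0672). The RNA gene Gm16897 overlaps Cd34 and had 0, 9, 33 and 25 counts in KO 2, 4, 5 and 6, so the split of reads between both is uncertain.

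Lyve1 binds hyaluronan on sinusoidal and lymphatic endothelium and on some resident macrophages; its gene lies on chromosome 7 at 110850607 to 110862953. Its levels were 3.04, 7.12, 4.76 and 5.77 CPM in Het 1 to 4, and 22.9, 22.7, 6.16 and 10.8 CPM in KO 2, 4, 5 and 6. In KO_drug 1 to 4 they were 27.7, 7.04, 5.41 and 5.36 CPM. KO 2, KO 4 and KO 6 lay above all Het libraries, and KO 5 lay within their range. The log2 change in KO vs Het was 1.59 (SE 0.56, adjusted p = 0.0367; exact two-sided permutation p = 0.0571). Lyve1 was not called without Het 1 (1.41, adjusted p = 0.0952), Het 3 (1.55, adjusted p = 0.0768), Het 4 (1.64, adjusted p = 0.0651), KO 2 (1.35, adjusted p = 0.0954) or KO 4 (1.37, adjusted p = 0.0948).

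Stab2, the clearance receptor for hyaluronan, lies on chromosome 10 at 86841194 to 87008038. Its levels were 83.1, 99.8, 155.7 and 146.3 CPM in Het 1 to 4, and 120.4, 94.9, 107.1 and 87.5 CPM in KO 2, 4, 5 and 6. In KO_drug 1 to 4 they were 89.98, 144.0, 89.6 and 127.5 CPM. All KO libraries lay within the Het range, and the log2 change was -0.24 (95% interval -0.71 to 0.22, adjusted p = 0.395). Stab1, its paralog on chromosome 14 at 31139017 to 31168651, was at 52.0, 73.7, 117.8 and 122.4 CPM in Het 1 to 4, and at 94.7, 79.4, 91.2 and 66.5 CPM in KO 2, 4, 5 and 6. The KO libraries of Stab1 again lay within the Het range, with a log2 change of -0.14 (95% interval -0.69 to 0.41, adjusted p = 0.688).

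Clec4g lies on chromosome 8 at 3707066 to 3720695. Its levels were 40.5, 37.3, 36.5 and 52.6 CPM in Het 1 to 4, and 36.3, 44.9, 29.0 and 38.2 CPM in KO 2, 4, 5 and 6. Both groups overlapped, and the log2 change was -0.17 (95% interval -0.51 to 0.16, adjusted p = 0.401). Fcgr2b lies on chromosome 1 at 170960558 to 170976071 and is also expressed by B cells and macrophages. Its levels were 48.6, 50.0, 58.0 and 59.0 CPM in Het 1 to 4, and 46.4, 53.9, 43.7 and 42.6 CPM in KO 2, 4, 5 and 6. KO 2, KO 5 and KO 6 were below all Het libraries and KO 4 was not, and the log2 change was -0.21 (95% interval -0.60 to 0.18, adjusted p = 0.375).

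Kdr, through which VEGF maintains the sinusoidal endothelium, lies on chromosome 5 at 75932827 to 75979072. Its levels were 57.5, 78.7, 111.3 and 109.7 CPM in Het 1 to 4, and 80.9, 83.0, 79.0 and 83.2 CPM in KO 2, 4, 5 and 6. The KO libraries lay close together within the Het range, and the log2 change was -0.13 (95% interval -0.54 to 0.28, adjusted p = 0.610). Vwf, on chromosome 6 at 125552948 to 125686679, ranged from 3.85 to 9.80 CPM over the Het libraries, 6.13 to 9.59 CPM over the KO libraries and 3.92 to 9.24 CPM over the KO_drug libraries. These ranges overlapped, and the log2 change in KO vs Het was 0.21 (95% interval -0.44 to 0.86, adjusted p = 0.601).

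The scaling set the sign of the 5 negative changes in KO vs Het. With total counts as the scale, the log2 changes of Stab1, Stab2, Clec4g, Fcgr2b and Kdr were 0.40, 0.30, 0.34, 0.32 and 0.41, and Lyve1, Pecam1, Tek and Cd34 were the 4 markers called higher. Over all genes that scale called 6909 higher and 460 lower, against 3077 and 2371 with TMM. On FPKM, which has no such between-library scaling, limma called 5 markers higher, Kdr being the fifth (0.42 on log2(FPKM + 1), adjusted p = 0.0442).

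**Figure D2:**
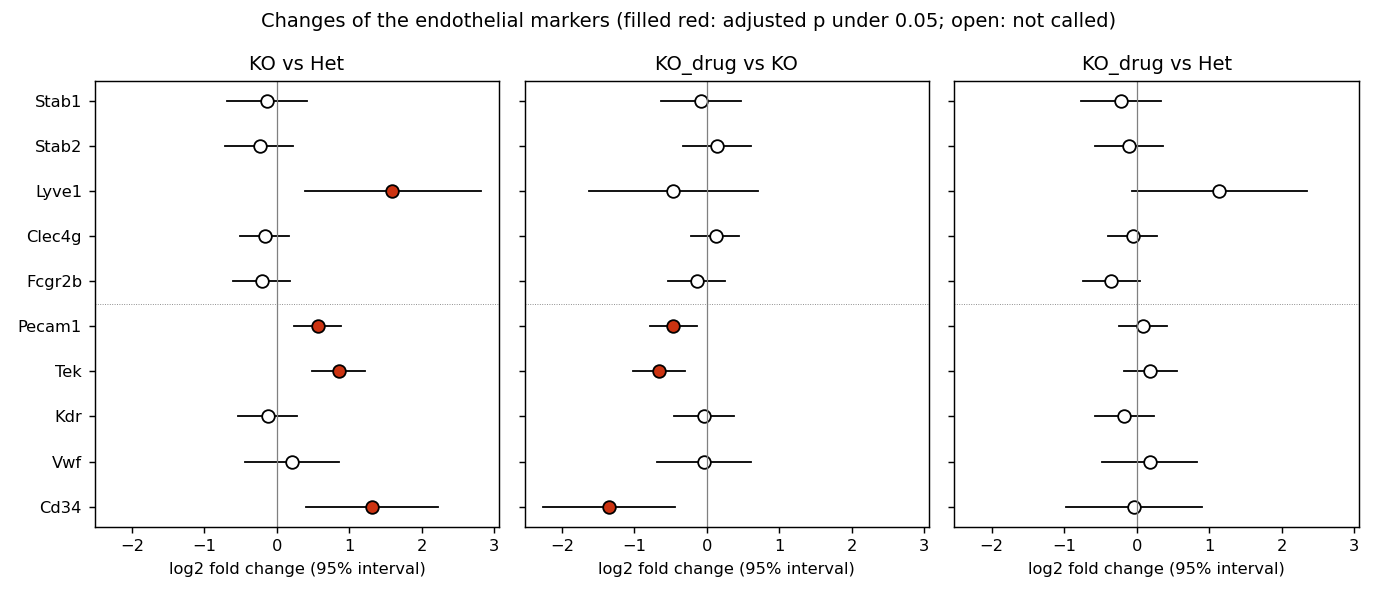
Log2 fold change of each marker with its 95% interval in the 3 comparisons; red points were called at an adjusted p under 0.05. Red points lie to the right in KO vs Het for Lyve1, Pecam1, Tek and Cd34 and to the left in KO_drug vs KO for Pecam1, Tek and Cd34, and KO_drug vs Het has none.

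The comparison of KO_drug with KO addresses what differs in Atp7b-/- liver when the LXR agonist is fed. Of the 10 markers, 3 were called lower in KO_drug and none higher. Cd34 was 2.54-fold lower (log2 -1.35, SE 0.42, adjusted p = 0.0397), Tek 1.58-fold lower (log2 -0.66, SE 0.17, adjusted p = 0.0156) and Pecam1 1.38-fold lower (log2 -0.47, SE 0.15, adjusted p = 0.0470). All 3 are vascular markers, and none of the 5 sinusoidal markers was called by edgeR. Over all genes 19.8% were called, 8.80% higher and 11.0% lower. The groups did not overlap for Tek and Cd34 (exact two-sided permutation p = 0.0286 for each), 2 of 10 markers against 23.9% of all genes. The median log2 change was -0.11 over the 10 markers and -0.02 over all genes. No marker was higher at an unadjusted p under 0.05 in edgeR, and DESeq2 and limma on log2(FPKM + 1) called 0 higher. Over all genes limma called 4548 lower and only 375 higher, so its 0 higher says little about these markers. This comparison shares its KO libraries with KO vs Het, so a KO library that stands apart moves both, in opposite directions.

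Tek passed in all 8 fits of KO_drug vs KO that left out 1 library. Without KO 5 and KO 6, its highest libraries, the log2 change of Tek was -0.29 (adjusted p = 0.249). Pecam1 passed in 1 of the 8 fits, the one without KO 5, and it did not pass without KO 2 (-0.39, adjusted p = 0.126), KO 4 (-0.36, adjusted p = 0.140), KO 6 (-0.51, adjusted p = 0.0580), KO_drug 1 (-0.50, adjusted p = 0.0542), KO_drug 2 (-0.44, adjusted p = 0.102), KO_drug 3 (-0.42, adjusted p = 0.123) or KO_drug 4 (-0.49, adjusted p = 0.0784). Cd34 passed in 3 of the 8 fits and did not pass without KO 2 (-1.43, adjusted p = 0.0570), KO 4 (-0.90, adjusted p = 0.139), KO_drug 2 (-1.41, adjusted p = 0.0699), KO_drug 3 (-1.29, adjusted p = 0.0975) or KO_drug 4 (-1.22, adjusted p = 0.102). Without KO 5 and KO 6, Pecam1 (-0.68, adjusted p = 0.00321) and Cd34 (-1.71) were called.

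Between KO_drug and KO, edgeR and DESeq2 called 0 of the sinusoidal markers. Limma on log2(FPKM + 1) called 1 lower, Fcgr2b, beside 4548 of all 13379 genes. Lyve1 had a log2 change of -0.46 (95% interval -1.62 to 0.71, adjusted p = 0.592), and KO_drug 1 had the highest Lyve1 level of all 12 libraries. Without KO_drug 1 the change of Lyve1 was -1.39 (adjusted p = 0.0339). Fcgr2b was at 25.4, 47.5, 47.1 and 49.7 CPM in KO_drug 1 to 4, so KO_drug 1 was the lowest of the 12 libraries, and the log2 change was -0.14 (95% interval -0.53 to 0.25). Clec4g was at 33.7, 40.9, 41.3 and 45.1 CPM in KO_drug 1 to 4, within reach of the KO libraries, with a log2 change of 0.12 (95% interval -0.22 to 0.45). The changes of Stab1 and Stab2 were -0.08 (95% interval -0.63 to 0.47) and 0.14 (95% interval -0.33 to 0.61). Among the vascular markers, Kdr was at 63.1, 90.0, 73.4 and 90.3 CPM in KO_drug 1 to 4, on both sides of the KO libraries, with a change of -0.04 (95% interval -0.45 to 0.37). Vwf had a change of -0.04 (95% interval -0.69 to 0.61).

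The comparison of KO_drug with Het sets the agonist-fed Atp7b-/- livers beside the controls. None of the 10 markers was called, while 21.4% of all genes were, 13.0% higher and 8.45% lower. No marker had groups that did not overlap, against 24.6% of all genes. At an unadjusted p under 0.05 edgeR gave 0 markers, and DESeq2 and limma on log2(FPKM + 1) gave 1 each, with 0 called by either after adjustment. The log2 change was 0.09 for Pecam1 (95% interval -0.24 to 0.42), 0.19 for Tek (95% interval -0.17 to 0.55) and -0.04 for Cd34 (95% interval -0.97 to 0.90). These intervals leave less room for Pecam1 and Tek than for Cd34, for which almost a 2-fold difference in either direction lies within the interval. Lyve1 had the largest change, 1.14 (95% interval -0.07 to 2.35, adjusted p = 0.174), which was 0.19 without KO_drug 1. Fcgr2b had a change of -0.35 (95% interval -0.74 to 0.04, adjusted p = 0.200). Stab1, Stab2, Clec4g, Kdr and Vwf had changes of -0.22, -0.10, -0.05, -0.17 and 0.18.

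A ratio of 2 markers within a library does not depend on how libraries are scaled to each other, and the ratios to Stab2 are described here without a test. The log2 ratio of Stab1 CPM to Stab2 CPM averaged -0.45 ± 0.17 for Het, -0.31 ± 0.08 for KO and -0.53 ± 0.11 for KO_drug. The ratio of Kdr to Stab2 was -0.44 ± 0.08, -0.32 ± 0.23 and -0.49 ± 0.16 in the same order. Over the 12 libraries the ratio of Stab1 to Stab2 ran from -0.68 to -0.23 and that of Kdr to Stab2 from -0.68 to -0.07. Tek over Stab2 ran from -2.63 to -1.97 in Het and from -1.88 to -0.71 in KO, without overlap, and from -2.55 to -1.60 in KO_drug, which overlapped both. Pecam1 over Stab2 averaged -2.10 ± 0.40 for Het, -1.37 ± 0.42 for KO and -1.92 ± 0.37 for KO_drug, and Het and KO overlapped. Cd34 over Stab2 averaged -6.27 ± 1.13 for Het, -4.71 ± 0.75 for KO and -6.08 ± 0.54 for KO_drug. Lyve1 over Stab2 was -4.57 ± 0.53, -2.90 ± 0.91 and -3.67 ± 1.33, and Clec4g over Stab2 was -1.51 ± 0.43, -1.48 ± 0.40 and -1.47 ± 0.29. Fcgr2b over Stab2 was -1.12 ± 0.30, -1.14 ± 0.26 and -1.43 ± 0.38, and Vwf over Stab2 ran from -4.89 to -3.63 in Het, from -4.13 to -3.56 in KO and from -4.52 to -3.64 in KO_drug. KO had the highest group mean in 7 of the 9 ratios, Clec4g and Fcgr2b being the exceptions. All 9 ratios share Stab2, so they are not separate observations. Among the markers, Stab2 had the lowest log2 change in KO vs Het (-0.24) and the highest in KO_drug vs KO (0.14), neither called. A lower Stab2 level raises every ratio in KO, also for Stab1 (-0.14 in KO vs Het) and Kdr (-0.13). The count of 7 therefore partly restates the level of Stab2.

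**Figure D3:**
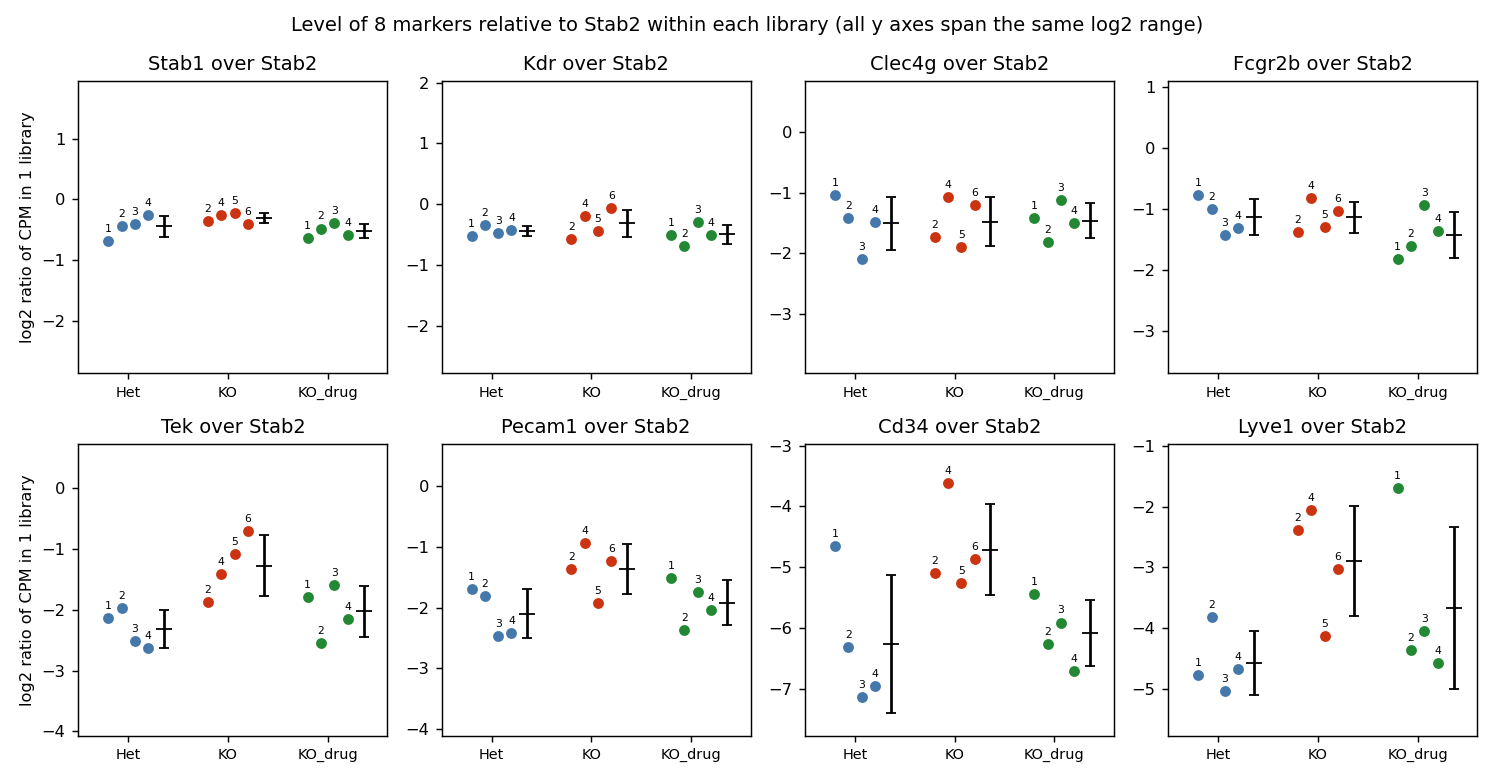
Log2 ratio of the CPM of markers to that of Stab2 within each library, 1 point per library with its number, beside the mean and SD of the 4 libraries of each group; all panels span the same log2 range. Stab1 over Stab2 lies between -0.68 and -0.23 and Kdr over Stab2 between -0.68 and -0.07, and Tek over Stab2 is higher in every KO library than in any Het library.

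Within groups, the markers did not vary as 1 set. For log2 CPM as deviations from the group means over 12 libraries, Pearson's r was 0.97 between Stab1 and Stab2, 0.91 between Stab1 and Kdr and 0.87 between Stab2 and Kdr. It was 0.73 between Lyve1 and Pecam1, -0.73 between Tek and Cd34 and -0.55 between Tek and Pecam1. All these values share library, depth and scaling and are given as a description. Of 12700 tested genes with established names, the 3 whose log2 CPM over the 12 libraries was most like that of Stab2 were Stab1 (r = 0.930), Tbc1d10a (r = 0.920) and Tnrc6b (r = 0.919). The 3 most like Cd34 were Bcam (r = 0.960), Crip1 (r = 0.957) and Lhfp (r = 0.951).

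The counts of other endothelial genes are from edgeR with TMM scaling unless another tool is named. In edgeR 23.0% of all genes were called higher and 17.7% lower in KO vs Het. These shares were 8.80% and 11.0% in KO_drug vs KO, and 13.0% and 8.45% in KO_drug vs Het. Limma on log2(FPKM + 1) called 7123 of 13379 genes higher and 457 lower in KO vs Het. It called 375 higher and 4548 lower in KO_drug vs KO, and 2058 and 470 in KO_drug vs Het. The edgeR and limma counts of each list below are read beside these. Of 10 further sinusoidal genes, all tested, 2 were called higher and 2 lower in KO vs Het, near edgeR's shares. Limma on log2(FPKM + 1) called 5 of them higher and 0 lower. Ctla2a was at 1.94 ± 0.727 CPM in Het and 6.65 ± 2.83 CPM in KO (log2 1.77, SE 0.39, adjusted p = 0.00301), and Flt4, a VEGF receptor of lymphatic and sinusoidal endothelium, changed by 0.60 (SE 0.20, adjusted p = 0.0278). Without KO 5 and KO 6 the change of Flt4 was 0.31 (adjusted p = 0.308), and it was not called without Het 1 (0.48, adjusted p = 0.0764), Het 2 (0.47, adjusted p = 0.0851) or KO 5 (0.45, adjusted p = 0.0880). Dnase1l3, a secreted DNase, changed by -0.84 (SE 0.25, adjusted p = 0.0175), which was -0.33 and not called (adjusted p = 0.328) with total-count scaling, and the other lower gene was Plpp3. Dnase1l3 was not called without KO 5 and KO 6 (-0.75, adjusted p = 0.0920), Het 4 (-0.70, adjusted p = 0.0541) or KO 6 (-0.74, adjusted p = 0.0519). In KO_drug vs KO edgeR called 0 of the 10, with 2 lower at an unadjusted p under 0.05, while DESeq2 called 1 lower and limma 3 lower. Of 12 sinusoidal angiocrine and zonation genes, 2 were called higher in KO vs Het and none lower (5 and 0 in limma): Thbd, the anticoagulant thrombomodulin, at 3.51 ± 0.742 CPM in Het and 12.04 ± 1.41 CPM in KO, and Kit, a receptor of central-vein sinusoids, with a log2 change of 0.58. Kit was not called without KO 5 and KO 6 (0.54, adjusted p = 0.0871) or without Het 2 (0.51, adjusted p = 0.0591). Both were called lower in KO_drug vs KO, by -0.93 for Thbd and -0.85 for Kit. Thbd was the 1 gene of the list called in KO_drug vs Het, higher by 0.84.

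Of 16 other pan-endothelial genes, 1 was called higher and 1 lower in KO vs Het, against 2 and 1 in DESeq2 and 9 and 0 in limma on log2(FPKM + 1). Cd93, a C-type lectin receptor that is also on myeloid cells, had means of 12.7 ± 3.45 CPM (Het), 35.9 ± 8.49 CPM (KO) and 19.3 ± 4.57 CPM (KO_drug). Cldn5, the endothelial tight-junction claudin, changed by -1.07 (SE 0.33, adjusted p = 0.0194) and was not called with total-count scaling (-0.54, adjusted p = 0.180), without KO 5 and KO 6 (-1.02, adjusted p = 0.0881) or without KO 6 (-0.99, adjusted p = 0.0506). With the agonist, in KO_drug vs KO, 2 of the 16 were called lower and none higher, near the 11.0% and 8.80% of all genes. The 2 were Cd93 (-0.89, and without KO 4 -0.78 with adjusted p = 0.0514) and Icam2 (-0.76), while limma called 6 lower. Of 12 genes of continuous capillaries and basement membrane, 8 were tested and 3 were called higher in KO vs Het and none lower (5 and 0 in limma). The log2 change was positive in 5 of the 8. It was negative but not called for Emcn (-0.43), Lama4 (-0.28) and Cav1 (-0.09). Nid1, a basement membrane linker, changed by 1.13 (SE 0.19, adjusted p = 0.000593), Plvap, which forms the diaphragms of endothelial pores, by 0.79 (SE 0.15, adjusted p = 0.000969), and the collagen IV chain Col4a1 by 1.09 (SE 0.34, adjusted p = 0.0214). The groups overlapped for Col4a1, whose call was lost without Het 1 (0.87, adjusted p = 0.0518), KO 2 (0.87, adjusted p = 0.0711) or KO 4 (0.94, adjusted p = 0.0642). In KO_drug vs KO, Nid1 (-1.09) and Plvap (-0.99) were called lower (4 genes in limma). In KO_drug vs Het edgeR, DESeq2 and limma called 0 of the 8, with 0 at an unadjusted p under 0.05.

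Of 11 genes listed as VEGF and angiopoietin ligands and co-receptors, not all of which act on Kdr or Tek, 9 were tested. In KO vs Het 3 of them were called lower and none higher. The balance turned on FPKM, where limma called 4 higher and 1 lower. Vegfa, the main ligand of Kdr, averaged 35.6 ± 2.97 CPM for Het, 19.7 ± 3.92 CPM for KO and 35.7 ± 4.85 CPM for KO_drug. Its log2 change was -0.85 in KO vs Het (SE 0.15, adjusted p = 0.000678) and 0.86 in KO_drug vs KO (SE 0.15, adjusted p = 0.00267), and with total-count scaling the former was -0.33 (adjusted p = 0.0638). Vegfb, a ligand of Flt1, changed by -1.62 (SE 0.30, adjusted p = 0.00108) and the co-receptor Nrp1 by -0.64 (SE 0.23, adjusted p = 0.0368) in KO vs Het. Nrp1 passed in 2 of the 8 fits that left out 1 library; it was not called without Het 2 (-0.64, adjusted p = 0.0661), Het 3 (-0.66, adjusted p = 0.0598), Het 4 (-0.53, adjusted p = 0.102), KO 4 (-0.55, adjusted p = 0.104), KO 5 (-0.66, adjusted p = 0.0620), KO 6 (-0.58, adjusted p = 0.0925), or KO 5 and KO 6 together (-0.65, adjusted p = 0.120). In KO_drug vs Het, 3 of the 9 were called lower, Vegfb, Nrp1 and Nrp2, against 1 in limma.

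Of 6 genes listed as endothelial adhesion molecules of leukocyte traffic, 5 were tested and 4 were called higher in KO vs Het. Whole-liver RNA does not show which cells these RNAs came from. Icam1 averaged 10.5 ± 2.79 CPM for Het, 57.2 ± 35.8 CPM for KO and 11.6 ± 2.06 CPM for KO_drug, and its log2 change was 2.45 in KO vs Het and -2.30 in KO_drug vs KO. Vcam1 changed by 2.03 and Selp, P-selectin, by 1.74 in KO vs Het, and both were called lower in KO_drug vs KO (-1.44 and -1.61). The latter call of Vcam1 was lost without KO 4 (-1.22, adjusted p = 0.0852), KO 6 (-1.34, adjusted p = 0.0591), KO_drug 2 (-1.19, adjusted p = 0.0656) or KO_drug 3 (-1.33, adjusted p = 0.0842). That of Selp was lost without KO 2 (-1.38, adjusted p = 0.0626) or KO_drug 3 (-1.42, adjusted p = 0.0638). The fourth was Sele, E-selectin, with 0 counts over the 4 Het libraries, 77 over KO and 7 over KO_drug. Sele passed the filter on low counts only through KO, the group where it is high, so its call adds no support to the count of 4. Of the 4 lymphatic genes, 2 were tested, and Prox1, which hepatocytes also express, was called lower in KO vs Het by edgeR (-0.80) and DESeq2 but not by limma on FPKM. The other, Reln, was not called by edgeR (-0.26, adjusted p = 0.406). Pdpn, at a mean of 0.232 CPM in Het, and Ccl21a, with 0 counts in each group, were not tested, so this list says little about lymphatic endothelium. Between KO_drug and KO edgeR and limma called 0 of the 2, with 1 higher at an unadjusted p under 0.05 in edgeR, and DESeq2 called 1 higher, Prox1 (0.49, adjusted p = 0.0352).

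Markers of other liver cells are given beside these results, by edgeR's calls. Over all genes edgeR called 23.0% higher and 17.7% lower in KO vs Het, and 8.80% higher and 11.0% lower in KO_drug vs KO. All 12 of 12 macrophage genes were called higher in KO vs Het, and 9 of 12 lower in KO_drug vs KO; none was at 0 in any group. The 3 with the smallest adjusted p were Ptprc and C1qc, which changed by 2.56 and 1.67 on the log2 scale in KO vs Het, and Cd68, at 10.3 CPM in Het and 28.9 CPM in KO. Their summed level was 486.6, 601.5, 461.5 and 622.3 CPM in Het 1 to 4, and 2374, 1780, 1124 and 1373 CPM in KO 2, 4, 5 and 6. In KO_drug 1 to 4 it was 1146, 533.7, 519.4 and 771.1 CPM. Within KO, KO 2 and KO 4 were highest, and KO_drug 1 was the highest of its group, as for Lyve1 and Pecam1. For Pecam1 the lead of KO_drug 1 was small, at 31.4 CPM against 30.9 CPM in KO_drug 4. Stellate cell and fibroblast genes were called higher in 4 of 8 in KO vs Het and lower in 5 of 8 in KO_drug vs KO, with summed levels of 265.6 to 304.8 CPM for Het, 408.4 to 677.8 CPM for KO and 229.0 to 267.5 CPM for KO_drug. Among them Lum changed by 1.08, Col1a1 by 2.55 and Col3a1 by 1.79 in KO vs Het. Platelet genes, 4 of 5 tested, were called higher in 1 in KO vs Het (Itga2b, 1.13; 4 in limma) and in KO_drug vs KO 0 were called by edgeR, with 2 lower at an unadjusted p under 0.05, and 4 lower by limma. They summed to 3.48 to 8.72 CPM for Het, 9.69 to 14.4 CPM for KO and 3.92 to 11.6 CPM for KO_drug. B cell genes, 2 of 4 tested, were called higher in 1 (Cd79b, 1.81) and lower in both in KO_drug vs KO. They summed to 0.423 to 1.75 CPM for Het, 2.41 to 4.81 CPM for KO and 0.883 to 1.27 CPM for KO_drug. The 2 tested were Cd79b, at means of 0.491, 1.75 and 0.365 CPM in Het, KO and KO_drug, and Ms4a1, at 0.491, 0.921 and 0.314 CPM. Both passed the filter on low counts mainly through KO, the group where they are high, so their calls are no support for a difference. Hepatocyte genes were called lower in 5 of 8 in KO vs Het, with log2 changes of -0.93 for Hnf4a, -1.42 for Serpina1c and -0.85 for Apoa1; limma on FPKM called 2 lower and 1 higher. Between KO_drug and KO edgeR called 0 of the 8, with 3 higher at an unadjusted p under 0.05, and DESeq2 called 2 higher. In KO_drug vs Het, 1 of the 12 macrophage genes (Cd5l), 1 of the 4 platelet genes (Itga2b) and none of the stellate or B cell genes were called higher. The part of these cells in the levels of Lyve1, Pecam1, Tek and Cd34, of the adhesion molecules and of the other endothelial lists was not tested.

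**Figure D4:**
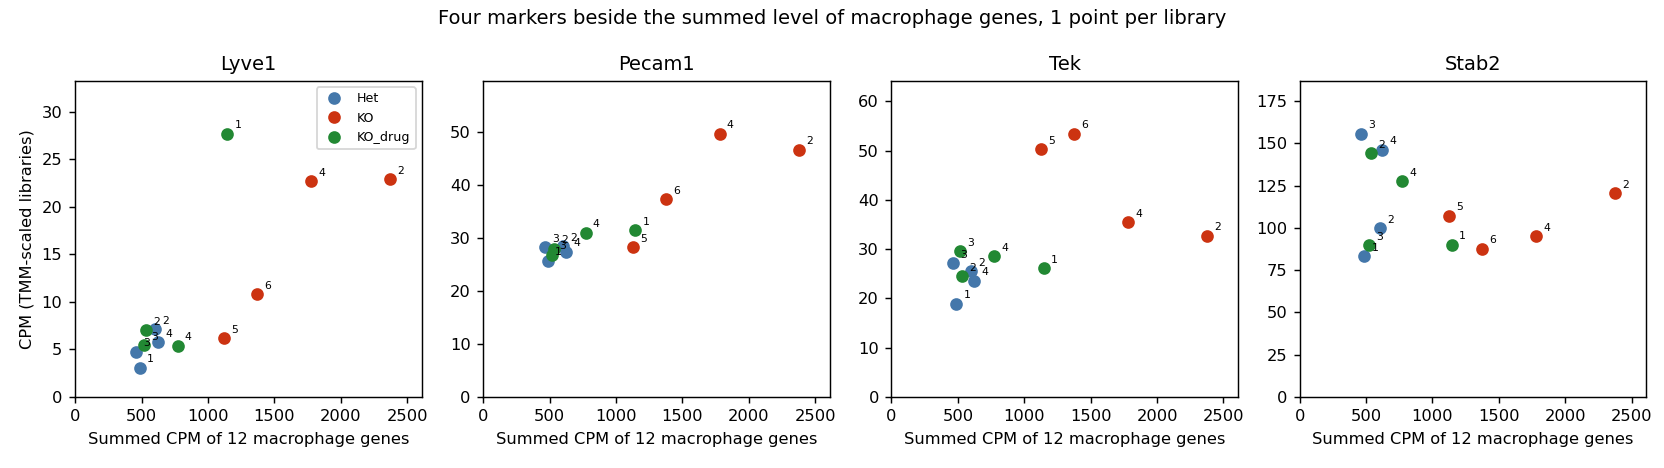
Level of markers in CPM against the summed CPM of 12 macrophage genes, 1 point per library with its number and the colour of its group. For Lyve1 and Pecam1, KO 2 and KO 4 are high on both axes, and KO_drug 1 is highest on the Lyve1 axis. For Tek, KO 5 and KO 6 are highest with lower macrophage sums than KO 2 and KO 4.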

How the data were processed

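RNA of flash-frozen whole liver was made into stranded total RNA libraries, per the labels' protocols, and 12 libraries in 3 groups of 4 were used. The authors deposited 1 table of read counts and FPKM per gene; StringTie 2.1.3b, FastQC 0.11.7 and the mm10 build are listed, per the submitters' processing notes. The aligner and the annotation were not given in the sources used here. Deposited counts were analysed as they stand, and 3 unnamed columns were not used. The deposited FPKM values were used for levels between genes and in an alternative test.

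Genes were kept with edgeR's filter (minimum count 10, minimum total 15), scaled by TMM and tested with edgeR 4.0.16's quasi-likelihood test in R 4.3.3, with 1 fit over the 3 groups and Benjamini-Hochberg adjustment over 13379 genes (threshold 0.05). Single markers were also compared with exact two-sided permutation tests of CPM. The scripts were tested on simulated data. Alternatives were total-count and relative log expression scaling, no filter, only the 2 groups compared, the title number as a block, each library left out, KO 5 and KO 6 left out, DESeq2 1.42.0, and limma 3.58.1 on log2(FPKM + 0.1) and log2(FPKM + 1). Library totals limit precision most for Cd34, Vwf and Lyve1.

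All 10 markers are named. From each list, up to 3 called genes with the smallest adjusted p in KO vs Het are named, and for Stab2 and Cd34 the 3 genes of highest Pearson r. Plpp3, Icam2, Nrp2, Cd5l, Sele, Emcn, Lama4, Cav1, Reln, Pdpn, Ccl21a and Ms4a1 were named after their values were seen. The markers and lists were chosen with earlier results of these data known.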

Additional observations from a re-analysis of the deposited data

Results flagged for a closer look

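In 30 groups of 4 libraries (10 markers in 3 groups), 4 single libraries stood apart from the other 3 by Dixon's 95% criterion on the gap to the nearest value; chance alone flags about 1 in 20 groups. Lyve1 was at 27.7 CPM in KO_drug 1, and the next highest library of that group was at 7.04 CPM. Fcgr2b was at 25.4 CPM in KO_drug 1, and the next lowest was at 47.1 CPM. Cd34 was at 3.30 CPM in Het 1, with the next at 1.25 CPM. Cd34 was at 7.75 CPM in KO 4, with the next at 3.52 CPM.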

How the results depend on the processing

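The counts of markers called held within 1.5 times under the scalings, filters and tools tried, and changed with single libraries: 2 to 4 higher in KO vs Het and 1 to 3 lower in KO_drug vs KO when each library was left out, and 0 in KO_drug vs Het throughout. Depth limits Cd34 most.

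With total-count scaling, changes near 0 took the other sign: in KO vs Het Stab1 0.40, Stab2 0.30, Clec4g 0.34, Fcgr2b 0.32 and Kdr 0.41; in KO_drug vs KO Stab2 -0.20, Clec4g -0.23, Cldn5 -0.16 and Hnf4a -0.19; in KO_drug vs Het Stab2 0.09, Clec4g 0.12, Kdr 0.03 and Cd34 0.09. On log2(FPKM + 0.1) the same happened in KO vs Het for Stab1 0.46, Stab2 0.33, Clec4g 0.36, Fcgr2b 0.32 and Kdr 0.45. It did in KO_drug vs KO for Stab2 -0.24, Clec4g -0.23, Dnase1l3 -0.04, Cldn5 -0.30 and Hnf4a -0.22, and in KO_drug vs Het for Stab1 0.01, Stab2 0.09, Clec4g 0.13, Kdr 0.04 and Cd34 0.24. On log2(FPKM + 1) the values were, in KO vs Het, Stab1 0.41, Stab2 0.30, Clec4g 0.35, Fcgr2b 0.31 and Kdr 0.42. They were, in KO_drug vs KO, Stab2 -0.22, Clec4g -0.22, Dnase1l3 -0.03, Cldn5 -0.17 and Hnf4a -0.22, and in KO_drug vs Het Stab1 0.00, Stab2 0.08, Clec4g 0.13, Kdr 0.04 and Cd34 0.06. Fcgr2b was called lower in KO_drug vs KO on FPKM. Pecam1 was not called in KO_drug vs KO without the filter (-0.47, adjusted p = 0.0552) or with only the 2 groups compared (-0.48, adjusted p = 0.0786). Total-count scaling also moved the median log2 change of all tested genes, from 0.02 to 0.54 in KO vs Het and from -0.02 to -0.36 in KO_drug vs KO. Why Pecam1 lost its call was not tested.

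Leaving out 1 library at a time gave ranges that crossed 0 for Stab1 in KO vs Het (-0.34 to 0.02), for Stab1 (-0.23 to 0.04), Fcgr2b (-0.22 to 0.05), Kdr (-0.11 to 0.05), Vwf (-0.17 to 0.17), Cldn5 (-0.21 to 0.43) and Nrp1 (-0.32 to 0.02) in KO_drug vs KO, and for Stab2 (-0.25 to 0.04), Clec4g (-0.12 to 0.07), Vwf (-0.01 to 0.45) and Cd34 (-0.20 to 0.50) in KO_drug vs Het.

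Same-numbered libraries of different groups correlated at -0.03 to 0.14 in their deviations from group means, so the numbers were not taken to pair the samples. With the title number as a replicate block, 4 markers were higher in KO vs Het and 2 lower in KO_drug vs KO, where Tek was not called (-0.32, adjusted p = 0.244). The numbers of KO 5 and KO 6 occur in no other group, so under the block both KO comparisons rest on KO 2 and KO 4. Under the replicate block Stab1 was at 0.05 and Kdr at 0.09 in KO_drug vs KO, and Cd34 at 0.09 in KO_drug vs Het.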
